A study of Mus musculus with 8 samples.

Results

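Splenic T cells of mice without Lsp1 (KO) were compared with those of wild-type mice (WT) after 6 h of stimulation by anti-CD3 and anti-CD28 antibodies, on 2 arrays of each genotype. These 4 arrays were chosen by their titles and belong to a study of 8 arrays on Lsp1 and T cell migration in rheumatoid arthritis. KO mice were Lsp1 -/-, bred back to C57BL/6 for 10 generations, and WT mice were Lsp1+/+ C57BL/6 of like age and sex, all between 8 and 12 weeks old. The other 4 arrays hold KO and WT T cells kept in medium, 2 of each, and serve here for the spread between arrays and for the genotype difference without stimulation. Anti-CD3 engages the T cell receptor and anti-CD28 a costimulatory receptor, so all cells compared had been activated in culture. The method of T cell purification and the deleted part of Lsp1 are not given in the sources used here. No label ties the 2 arrays of a group to different mice or cultures, and the p-values therefore rest on a spread between samples that may be technical.

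The product of Lsp1, leukocyte-specific protein 1, is a phosphoprotein of white blood cells that binds filamentous actin. It sits on the cortical actin cytoskeleton and is a known substrate of kinases of the p38 pathway. It has been tied to the adhesion and migration of leukocytes, T cells among them.

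Values are log2 of the scanner's processed signal minus the 75th percentile of that array, so a difference of 1 is a 2-fold difference. The test covered 15139 genes, each by 1 probe, and 13552 of them were well above background on all 4 stimulated arrays. The stimulated KO arrays differed more from each other than the WT arrays did, with a root mean square SD over genes of 0.454 against 0.250, as in medium (0.431 against 0.252). T cell RNA was present throughout, with 20 of 20 T cell identity genes well above background on all 4 arrays. So were 17 of 17 B cell markers and 15 of 15 natural killer cell markers. KO replicate 2 stood apart from the other 3 stimulated arrays in markers of neutrophils, red cells and dividing cells, and the KO medium array of the same number stood apart in the same markers.

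Lsp1 messenger RNA was 10.2-fold lower in stimulated KO cells. Its value was 7.05 and 6.98 on the WT arrays and 3.68 and 3.65 on the KO arrays. Replicates lay close together and the genotypes far apart. KO minus WT was -3.35 ± 0.13 (± standard error of the fit, 2 arrays per group; limma, adjusted p = 0.00248). In medium the same probe stood at 7.47 and 7.23 in WT and 3.64 and 3.48 in KO cells, and the difference there (-3.79) was not distinguished from that after stimulation (limma, adjusted p = 0.9999). The probe stayed well above background on both KO arrays, and since the deleted part is not known, the remaining signal cannot be assigned. The limma adjusted p was 0.0575 without WT stimulated replicate 2, 0.0601 without both KO replicate 2 arrays and 0.0714 in a fit of the 4 stimulated arrays alone.

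Besides Lsp1, 2 genes were called, both lower in KO cells and both dim. At an adjusted p below 0.05 over all genes, 0.0198% of genes were called lower and 0% higher (limma). At an unadjusted p below 0.05, 402 genes were higher (2.66%) and 355 lower (2.34%). Olfr325 encodes an olfactory receptor and Gpr39 a zinc-sensing G protein-coupled receptor. Olfr325 was at -4.40 and -4.54 on the WT arrays and at -8.09 and -8.13 on the KO arrays, not well above background. Gpr39 was at -4.35 and -4.57 against -7.91 and -7.97, likewise not well above background in KO cells. Both receptor genes were thus measured on the stimulated WT arrays only, since neither was well above background on any medium array.

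A signal below background gives only a bound, by which Olfr325 was at least 2.47-fold lower and Gpr39 at least 2.49-fold lower. The bounds were not tested. The adjusted p-values, 0.00463 for Olfr325 and 0.00960 for Gpr39 (limma), belong to the measured differences of -3.64 and -3.48. Both probes passed the filter only through the stimulated WT arrays, where they were high. The bound sets the WT mean against, on each KO array, the higher of the probe's own signal and the lowest signal well above background. In medium Olfr325 lay at -8.67 and -8.97 in WT and at -8.60 and -8.22 in KO cells, and Gpr39 at -8.51 and -8.82 against -8.45 and -7.98, all near the floor of the arrays. The genotype difference of Olfr325 after stimulation differed from that in medium (-4.05, limma, adjusted p = 0.0393), the 1 gene so called, or 0.00661% of those tested. That call was lost with any 1 of the 8 arrays left out (limma, adjusted p from 0.0520 to 0.193). For Gpr39 the same comparison did not pass (-3.93, limma, adjusted p = 0.0555). Both calls were lost under several alternatives, for a cause that was not tested. From the deposited value table KO minus WT was -1.28 for Olfr325 (limma, adjusted p = 0.460) and -1.12 for Gpr39 (limma, adjusted p = 0.0764). With the difference itself unchanged, a variance trend gave adjusted p = 0.175 and 0.180 and a fit of the 4 stimulated arrays 0.0714 and 0.109 (limma). Both were also lost without KO stimulated replicate 2 (limma, adjusted p = 0.0533 and 0.0653) and without WT stimulated replicate 2 (limma, adjusted p = 0.0575 and 0.0698). Gpr39 alone was lost without WT stimulated replicate 1 (limma, adjusted p = 0.0728) or either WT medium array (limma, adjusted p = 0.0650).

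**Figure D1:**
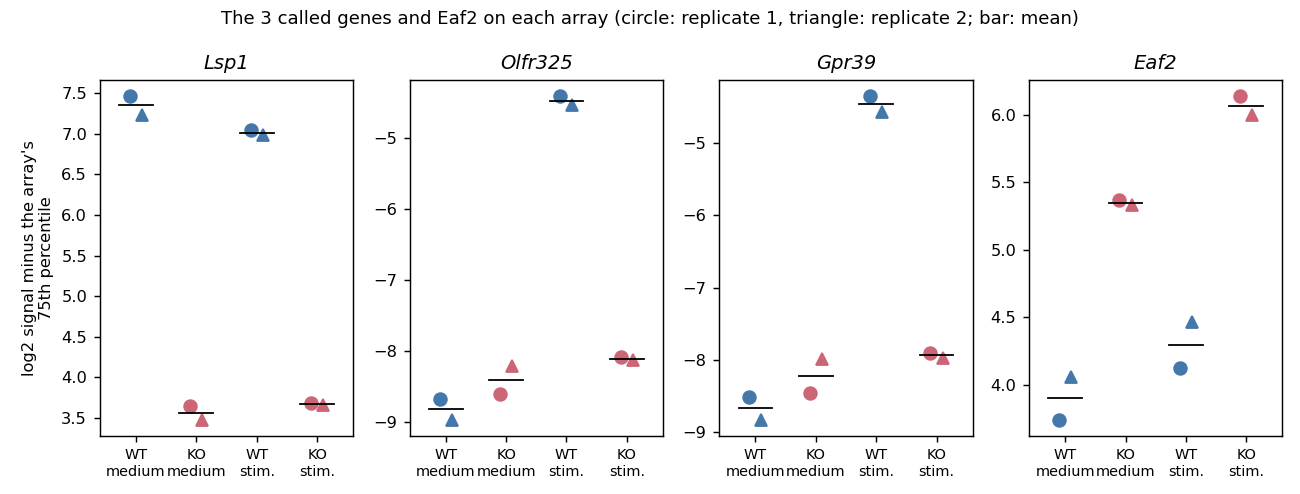
Log2 signal minus the array's 75th percentile for Lsp1, Olfr325, Gpr39 and Eaf2 on all 8 arrays, with circles for replicate 1, triangles for replicate 2 and a bar for the mean of each group of 2. Lsp1 lay between 6.98 and 7.47 on the WT arrays and between 3.48 and 3.68 on the KO arrays, Olfr325 and Gpr39 left the floor on the stimulated WT arrays only, and Eaf2 lay higher on the KO arrays without passing the test.

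A simpler measure is whether both KO arrays lay beyond both WT arrays, written here as lying above or below. Among all genes 2025 lay above, 13.4%, and 3674 lay below, 24.3%. An exact permutation test of 2 arrays against 2 cannot go under p = 0.333, so these counts carry no test, and those of each gene group are to be read against these shares. The median difference over all genes was -0.039.

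The 12 genes with the widest gap upward, among those well above background on all 4 arrays, did not pass the test, and 10 of them lay above in medium too. The narrowest of these gaps was 1.01, and the next gene, Il11, had 0.98. Eaf2, a transcription elongation factor gene, was at 4.13 and 4.46 in WT and 6.14 and 6.00 in KO cells (1.77 ± 0.17, limma, adjusted p = 0.0988). Both KO arrays were well clear of WT, and in medium KO minus WT was 1.45. Another Eaf2 probe had no gap, at 0.95 and 1.1 in WT and 0.80 and 1.20 in KO cells, so the 2 probes disagree.

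Kif9, a kinesin motor gene, was at -4.09 and -4.34 in WT and -1.79 and -2.68 in KO cells (1.98 ± 0.40). Of its 3 other probes 1 gave a like difference (2.23) and the others values near 0 (0.025 and -0.022). Padi4, which encodes an arginine deiminase that citrullinates histones, was at -2.22 and -1.14 against 0.14 and -0.077 (1.71 ± 0.39), with 1.45 by its other probe. Camk2b, a calcium/calmodulin-dependent kinase gene, was at -0.35 and -0.13 against 1.50 and 0.93 (1.45 ± 0.25), with 0.41 by its other probe. For both genes the probes shared a direction and, for Camk2b, not the size.

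The membrane peptidase gene Ecel1 was at -3.03 and -2.11 in WT and -0.51 and -0.61 in KO cells (2.01 ± 0.36). Esm1, which encodes the proteoglycan endocan, was at -1.25 and -0.25 against 0.99 and 1.0 (1.75 ± 0.33). Cd33, a sialic acid-binding lectin gene of myeloid cells, was at -4.22 and -4.00 against -2.16 and -2.69 (1.69 ± 0.57). These 3 lay above in medium as well. The remaining 5 were Vat1l (1.82 ± 0.39), Gm6034 (1.34 ± 0.32), the LIM-domain gene Lmo1 (2.24 ± 0.72), the secreted phospholipase gene Pla2g2e (1.30 ± 0.36) and the proglucagon gene Gcg (1.27 ± 0.25). Lmo1 was at -3.85 and -1.99 on the KO arrays, a wide spread, and Pla2g2e and Gcg overlapped between genotypes in medium.

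Among the 12 genes with the widest gap downward Lsp1 was the 1 that passed, and 10 lay below in medium too. The narrowest of these gaps was 0.80, to 2 decimals that of the next gene, Unc5cl. Aif1l, which encodes a calcium- and actin-binding protein, was at -2.37 and -1.48 in WT and -4.60 and -4.48 in KO cells (-2.62 ± 0.36, limma, adjusted p = 0.259), and at -3.26 KO minus WT in medium. Cyp27b1, the enzyme gene for active vitamin D, was at -1.78 and -2.99 against -5.29 and -4.95 (-2.74 ± 0.39, limma, adjusted p = 0.302). In medium both KO arrays lay above WT for Cyp27b1 (1.29), and the difference between the conditions did not pass (-4.03, limma, adjusted p = 0.899).

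Adm, which encodes the peptide adrenomedullin, was at -1.14 and -1.31 in WT and -2.40 and -2.47 in KO cells (-1.21 ± 0.14, limma, adjusted p = 0.157). Il5ra, a chain of the interleukin-5 receptor, was at 0.16 and -0.15 against -1.31 and -1.22 (-1.27 ± 0.23). Nid1, a basement membrane gene, was at -1.16 and -1.07 against -2.28 and -2.20 (-1.12 ± 0.18). In all 3 the replicates of each genotype lay near each other. The LIM-domain gene Lmo7 (-1.03 ± 0.15, with -1.30 by its other probe), 1810046K07Rik (-1.66 ± 0.35) and the trypsin gene Try4 (-1.62 ± 0.54) also lay below, Try4 with overlap in medium. Ms4a1 and H2-Eb2 (-0.94 ± 0.20), genes of B cells and antigen-presenting cells, were among the 12 as well.

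**Figure D2:**
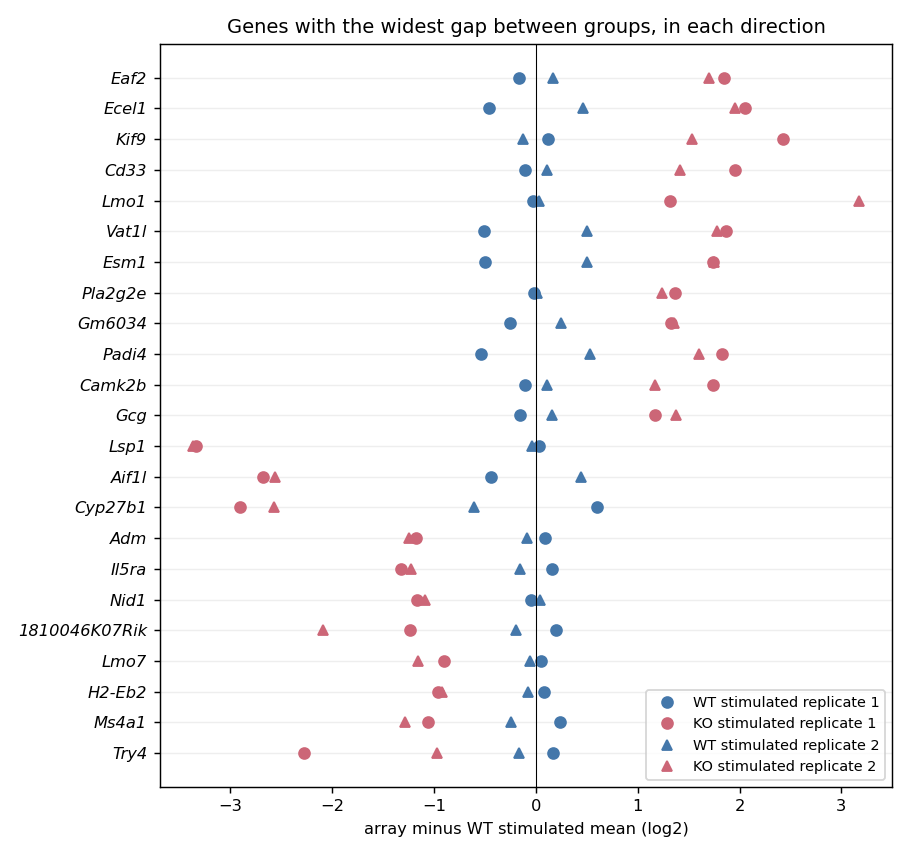
Each stimulated array minus the WT stimulated mean (log2) for genes with the widest gap between genotypes in each direction, with circles for replicate 1 and triangles for replicate 2. Lsp1 lay furthest down with its KO arrays almost on one another, and it was the 1 gene of the plot that was called.

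Genes of the actin cytoskeleton and motility, the setting in which the Lsp1 protein works, leaned lower by small amounts. Of 60 measured, 28 lay below, 46.7% against 24.3% of all genes, and 1 above, 1.67% against 13.4%. The median was -0.097. With quantile normalization 16 lay below and 6 above, against 20.0% and 15.4% of all genes, with a median of -0.027. This one-sided count thus changed with the scaling. In medium 8 lay below and 5 above, against 21.2% and 12.9% of all genes. The formin gene Diaph1 was at 0.13 and 0.27 in WT and -0.18 and -0.34 in KO cells (-0.46 ± 0.26, with -0.14 by its other probe). Arpc5, a subunit of the actin-nucleating Arp2/3 complex, stood at -0.19 ± 0.11, with -0.028 by its other probe. Rdx, which encodes the membrane-actin linker radixin, was at -0.22 ± 0.11 by one probe and 0.021 by the other. None of the 60 passed the test.

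Integrins and adhesion molecules showed no common side. Of 27 measured, 6 lay above, 22.2% against 13.4% of all genes, and 5 below, 18.5% against 24.3%. The median was -0.080. Itgb1, the integrin beta-1 chain, was at 1.92 and 2.11 in WT and 2.40 and 2.41 in KO cells (0.39 ± 0.18), and its other probe gave 0.16. Itgb3, the integrin beta-3 chain, was at 4.85 and 4.72 against 4.61 and 4.21 (-0.37 ± 0.16), with -0.40 by its other probe. Each lay on the same side in medium. Of the chains of LFA-1, the main leukocyte integrin, Itgal lay above (0.20 ± 0.13) and Itgb2 overlapped (-0.019 ± 0.14). Itgav (0.30 ± 0.15) and Alcam (0.43 ± 0.28), an adhesion molecule of activated T cells, lay above.

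Among 21 chemokine and homing receptors 3 lay above, 14.3% against 13.4% of all genes, and 7 below, 33.3% against 24.3%. The median was -0.17. Cxcr6, a chemokine receptor of effector T cells, was at 6.07 and 5.73 in WT and 5.50 and 5.05 in KO cells (-0.62 ± 0.28), with -0.70 by another probe. Ccr6 stood at -0.23 ± 0.15. Ccr7, a receptor for homing to lymph nodes, was at 6.56 and 6.75 against 6.62 and 6.33 and overlapped (-0.18 ± 0.19). Among 33 genes of the ERK and p38 pathways and their feedback 1 lay above, 3.03%, and 5 below, 15.2%, with a median of -0.0090. None of these receptor or pathway genes passed the test.

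**Figure D3:**
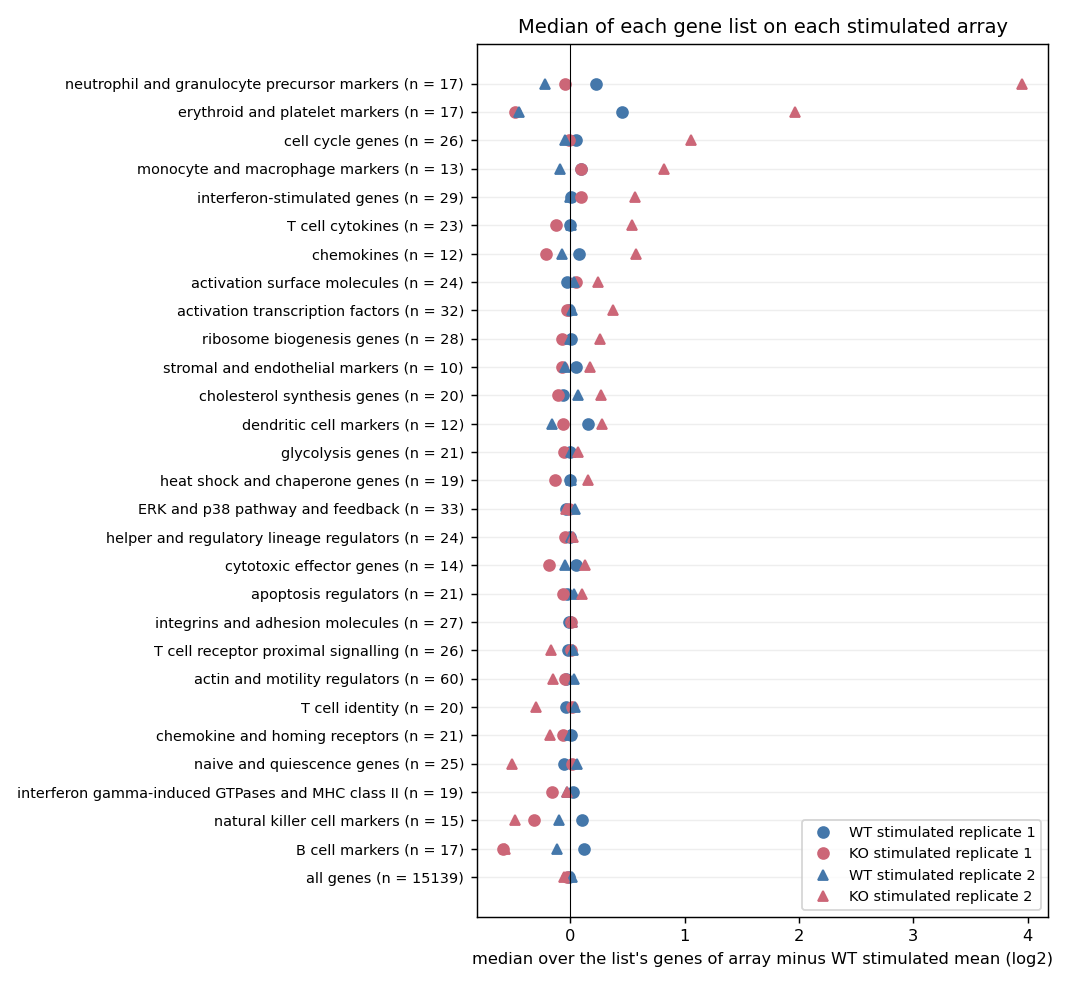
Median over each gene list of the value on an array minus the WT stimulated mean (log2), 1 line per list and 1 point per stimulated array, with circles for replicate 1 and triangles for replicate 2. B cell and natural killer cell markers lay low on both KO arrays, whereas neutrophil, erythroid and cell cycle genes were high on KO replicate 2 alone.

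Genes of T cell activation leaned upward mainly on KO replicate 2. Of 32 activation transcription factors 7 lay above, 21.9% against 13.4% of all genes, and 2 below, 6.25% against 24.3%. The list median was -0.033 on KO replicate 1 and 0.37 on KO replicate 2. In medium the lean was the other way, with 1 above and 10 below, against 12.9% and 21.2% of all genes, and a median of -0.15. Bhlhe40 was at 2.54 and 2.50 in WT and 2.68 and 3.05 in KO cells (0.35 ± 0.15), and the nuclear receptor gene Nr4a2 stood at 0.46 ± 0.21. Of 24 activation surface molecules 11 lay above, 45.8% against 13.4% of all genes, and 3 below, 12.5% against 24.3%. Their median was 0.15, and 0.048 and 0.24 on KO replicates 1 and 2. In medium 6 of them lay above and 2 below, with a median of 0.013. Tnfsf11, which encodes the cytokine RANKL, was at 1.14 and 1.09 against 1.39 and 2.06 (0.61 ± 0.22, limma, adjusted p = 0.845). The inhibitory receptor genes Pdcd1 (0.60 ± 0.24), Lag3 (0.45 ± 0.18) and Ctla4 (0.25 ± 0.12) lay above after stimulation and in medium. Tnfrsf9, which encodes the costimulatory receptor 4-1BB, stood at -0.46 by one probe and 0.34 by another, so its direction is not settled.

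Of 23 T cell cytokines 5 lay above and 3 below. Il21, the cytokine of follicular helper cells, was at -1.81 and -1.03 in WT and -0.68 and 0.82 in KO cells (1.49 ± 0.51, limma, adjusted p = 0.809). Il4, the signature cytokine of type 2 helper cells, was at 3.16 and 2.79 against 2.18 and 2.63 (-0.57 ± 0.23), and Csf2, which encodes GM-CSF, at 2.49 and 2.24 against 1.53 and 2.13 (-0.53 ± 0.24). None of these 3 passed, and each lay on the same side in medium. Ifng was at 5.97 and 5.72 against 4.99 and 6.79, so the KO arrays enclosed the WT arrays, and Il2 at 3.02 and 3.20 against 3.14 and 4.08, high on KO replicate 2 alone. The cytokine median was -0.13 on KO replicate 1 and 0.54 on KO replicate 2, and that of 12 chemokines -0.21 and 0.58, an array difference also seen in neutrophil and erythroid markers, whose part was not tested.

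T cell identity genes were near WT on KO replicate 1 and lower on KO replicate 2. Of 20, 0 lay above, against 13.4% of all genes, and 6 below, 30% against 24.3%. The medians were 0.015 and -0.30 on the KO arrays. Trat1, an adaptor gene of the T cell receptor complex, was at 4.70 and 4.65 in WT and 4.28 and 3.63 in KO cells (-0.72 ± 0.28). The 25 naive and quiescence genes had medians of 0.014 and -0.51 on the KO arrays. Of them 5 lay below, 20% against 24.3% of all genes, and none above, against 13.4%. Among those below were Pdlim4 (-0.81 ± 0.34) and the glucose uptake inhibitor gene Txnip (-0.41 ± 0.21). Among 26 genes of proximal T cell receptor signalling 2 lay above, 7.69%, and 8 below, 30.8%. Among 24 regulators of helper and regulatory lineages 2 lay above, 8.33%, and 3 below, 12.5%. Of all genes 13.4% lay above and 24.3% below. Foxp3, the regulator of regulatory T cells, was at 0.18 ± 0.13. On the same KO replicate 2 array the median of neutrophil markers was 3.95, of erythroid and platelet markers 1.97 and of monocyte and macrophage markers 0.82, and their part in these values was not tested.

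B cell markers lay lower on both KO arrays, without a single one passing the test. Of 17 measured, 16 lay below, 94.1% against 24.3% of all genes, and none above. The median difference was -0.55, and -0.59 and -0.57 by KO array. Ms4a1, which encodes CD20, was at 2.21 and 1.73 in WT and 0.91 and 0.69 in KO cells (-1.17 ± 0.25, limma, adjusted p = 0.390), and the IgM receptor gene Fcmr at 2.45 and 2.16 against 1.40 and 0.92 (-1.15 ± 0.21). Cd22, an inhibitory coreceptor gene, was the 1 marker that overlapped (-0.055).

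At an unadjusted p below 0.05, 9 of the 17 B cell markers were lower (limma), against 2.34% of all genes. In medium 14 lay below, against 21.2% of all genes, and 13 lay below in both conditions, against 8.36%. By single arrays, 16 lay below both WT arrays on KO replicate 1 and 17 on KO replicate 2, against 43.8% and 49.8% of all genes. The summed level of the list, on a log2 scale, was 5.96 and 5.78 in stimulated WT and 5.26 and 5.33 in stimulated KO cells. In bulk samples such as these, fewer cells of a type and less RNA per cell cannot be told apart.

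Natural killer cell markers lay lower as well. Of 15 measured, 13 lay below, 86.7% against 24.3% of all genes, and none above, against 13.4%. The median was -0.36, and -0.32 and -0.48 by KO array. Their summed log2 level was 6.05 and 5.87 in WT and 5.74 and 5.66 in KO cells. In medium 12 lay below, against 21.2% of all genes. Klri2, a lectin-like receptor gene, was at 0.35 and 0.15 in WT and -0.36 and -0.39 in KO cells (-0.62 ± 0.13, limma, adjusted p = 0.390). Klrb1c, which encodes NK1.1, was at -0.33 and -0.24 against -0.78 and -1.23 (-0.72 ± 0.18), with -1.05 by its other probe. Klra9, of the Ly49 receptor family, stood at -0.45 ± 0.13, and since the members of that family are near-identical, its probe may share their signal. Other members of the family are in the list, so its counts may hold 1 signal more than once. Of the 15 markers 2, Eomes among them, also stand in another gene list here. Ncr1, an activating receptor gene, overlapped (-0.17 ± 0.25). Among 14 cytotoxic effector genes, which T cells also express, 1 lay above, 7.14% against 13.4% of all genes, and 4 below, 28.6% against 24.3%. The death ligand gene Fasl was at -0.35 ± 0.18 and the granzyme gene Gzmk at 0.34 ± 0.16.

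**Figure D4:**
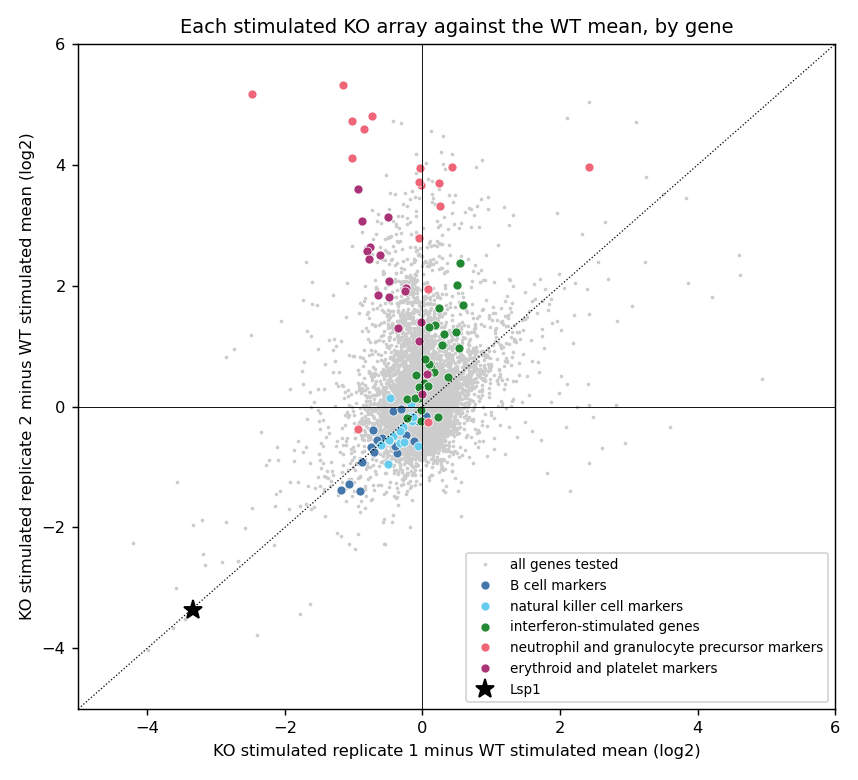
Value of each gene on KO stimulated replicate 1 (horizontal) and replicate 2 (vertical) minus the WT stimulated mean (log2), with all 15139 genes in grey and 5 gene lists and Lsp1 marked. B cell and natural killer cell markers lay low on both axes, and neutrophil and erythroid markers lay high on replicate 2 without a like value on replicate 1.

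Interferon-stimulated genes leaned the other way. These antiviral genes are induced by type I interferon through the factor ISGF3, which binds the interferon-stimulated response element. Of 29 measured, 18 lay above, 62.1% against 13.4% of all genes, and 2 below, with a median of 0.38. In medium 20 lay above, against 12.9% of all genes, and 15 lay above in both conditions, against 4.39%. At an unadjusted p below 0.05, 7 were higher, against 2.66% of all genes. None passed over all genes, and the smallest adjusted p was 0.492 (limma).

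The promoter windows of 4 members, 300 bases each and mostly upstream of the start, come from RefSeq GRCm38.p6. Ifit3, Ifit1 and Ifit2 are the list members with the smallest unadjusted p after stimulation (limma), and Gbp2 has the smallest among those that lay below. The windows are Ifit3 at chr19:34583279-34583578, Ifit1 at chr19:34640639-34640938, Ifit2 at chr19:34550444-34550743 and Gbp2 at chr3:142620413-142620712, all on the + strand. Capitals mark matches to GAAANNGAAA or, on the other strand, TTTCNNTTTC.
Ifit3: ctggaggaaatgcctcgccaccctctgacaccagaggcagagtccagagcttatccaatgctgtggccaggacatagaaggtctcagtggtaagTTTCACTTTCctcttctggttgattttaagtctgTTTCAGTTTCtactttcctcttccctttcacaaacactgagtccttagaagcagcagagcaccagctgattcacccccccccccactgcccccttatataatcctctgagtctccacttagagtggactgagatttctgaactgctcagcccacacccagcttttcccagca
Ifit1: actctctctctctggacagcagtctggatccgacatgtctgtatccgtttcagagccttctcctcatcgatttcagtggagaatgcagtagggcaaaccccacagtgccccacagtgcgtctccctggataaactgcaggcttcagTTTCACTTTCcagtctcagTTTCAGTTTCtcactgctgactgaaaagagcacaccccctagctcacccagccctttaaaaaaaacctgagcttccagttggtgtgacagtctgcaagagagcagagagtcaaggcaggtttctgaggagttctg
Ifit2: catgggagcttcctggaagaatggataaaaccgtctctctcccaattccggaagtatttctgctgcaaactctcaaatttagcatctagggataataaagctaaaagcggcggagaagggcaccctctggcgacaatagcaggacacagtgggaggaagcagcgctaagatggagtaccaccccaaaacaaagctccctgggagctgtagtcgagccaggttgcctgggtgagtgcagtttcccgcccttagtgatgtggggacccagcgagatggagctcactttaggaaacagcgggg
Gbp2: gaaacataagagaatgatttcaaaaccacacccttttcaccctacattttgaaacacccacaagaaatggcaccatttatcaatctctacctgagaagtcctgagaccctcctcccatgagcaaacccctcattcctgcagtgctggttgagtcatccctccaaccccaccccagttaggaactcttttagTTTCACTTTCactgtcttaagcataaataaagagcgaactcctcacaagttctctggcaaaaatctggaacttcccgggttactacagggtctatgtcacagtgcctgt
The windows of Ifit3 and Ifit1 held 2 matches each, that of Gbp2 1 and that of Ifit2 none. Of the 23 interferon-stimulated genes measured and found in the promoter table, 14 held a match (60.9%), against 461 of 12094 tested genes found there (3.81%) and 3.44% of all 32851 single windows. Of the 14 with a match 8 lay above, and of the 9 without one 8 lay above. Over all tested genes found in the table, 13.4% of those with a match lay above and 13.1% of those without.

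Ifit3, which encodes an antiviral protein with tetratricopeptide repeats, was at 3.37 and 3.41 in WT and 3.93 and 4.37 in KO cells (0.75 ± 0.17, limma, adjusted p = 0.492). Ifit1, of the same family, was at 2.01 and 2.04 against 2.51 and 3.26 (0.86 ± 0.24, limma, adjusted p = 0.639). Ifit2 was at 1.28 and 1.30 against 1.66 and 1.78 (0.43 ± 0.14, limma, adjusted p = 0.765). All 3 lay above, and of them Ifit2 overlapped in medium. Gbp2, a guanylate-binding protein gene that interferon gamma also induces, was at 7.91 and 7.97 against 7.72 and 7.75 (-0.20 ± 0.22), below WT.

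The RNA sensor genes Dhx58 (0.66 ± 0.24) and Ifih1 (0.65 ± 0.24) and the oligoadenylate synthetase gene Oas3 (0.75 ± 0.28) also lay above. The size of the difference was uneven between the KO arrays. Rsad2, which encodes the antiviral enzyme viperin, was at -0.51 and -0.48 in WT and 0.055 and 1.89 in KO cells, and the ubiquitin-like gene Isg15 at 4.88 and 4.89 against 5.12 and 6.52. The list median was 0.093 on KO replicate 1 and 0.57 on KO replicate 2. On KO replicate 1 alone 19 of 29 members were above both WT arrays, against 31.2% of all genes, and on replicate 2 alone 25, against 35.7%. Neutrophil, erythroid and monocyte markers were high on the same KO replicate 2 array, and their part in the size there was not tested. In medium the interferon-stimulated median was 0.46 and 0.50 on KO replicates 1 and 2, and that of neutrophil markers -0.19 and 4.24.

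Genes induced mainly by interferon gamma leaned lower after stimulation, mainly on KO replicate 1. Of 19 interferon gamma-induced GTPases and MHC class II genes 1 lay above and 10 below, 52.6% below against 24.3% of all genes, with a median of -0.20. The list median was -0.16 on KO replicate 1 and -0.030 on KO replicate 2. On KO replicate 1 alone 18 were below both WT arrays, against 43.8% of all genes. On KO replicate 2 alone 10 were below, against 49.8%, and 6 above, against 35.7%. In medium 6 lay above and 1 below, against 12.9% and 21.2% of all genes, with a median of 0.059. H2-DMa, a peptide-loading chain of the class II pathway, was at 4.72 and 4.64 in WT and 4.32 and 4.18 in KO cells (-0.43 ± 0.12, limma, adjusted p = 0.606). The GTPase genes Ifi47 (-0.27 ± 0.12) and Irgm2 (-0.30 ± 0.14) lay below too. The class II gene H2-Ab1, which B cells express as well, was at 6.25 and 6.14 against 5.56 and 6.18 and overlapped. B cell markers lay lower in the same KO samples, and their part in this list was not tested.

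**Figure D5:**
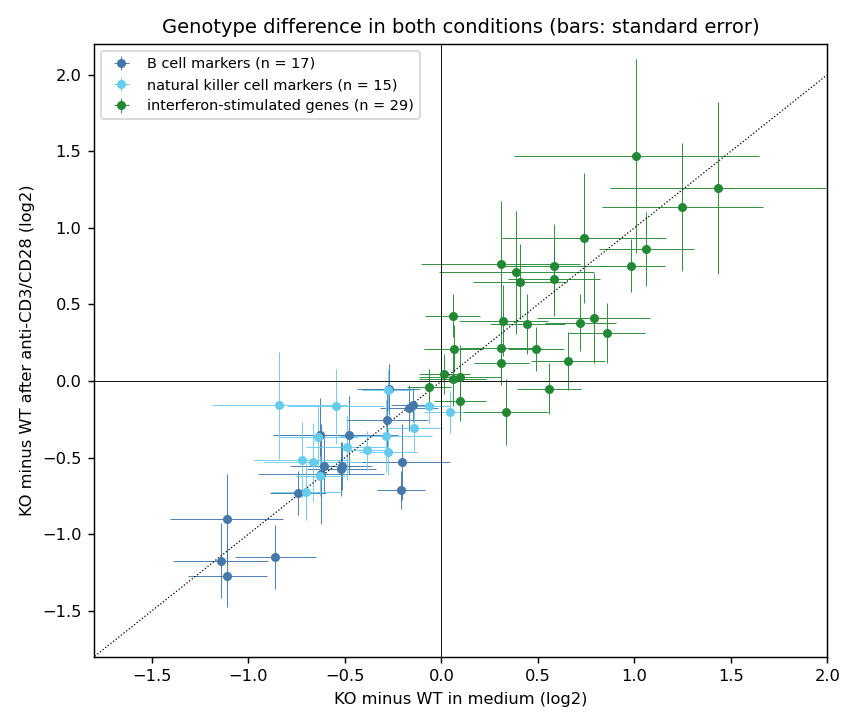
KO minus WT in medium (horizontal) and after anti-CD3/CD28 (vertical), log2 with standard errors of the limma fit, 1 point per gene. The list medians in medium and after stimulation were -0.52 and -0.55 for B cell markers, -0.49 and -0.36 for natural killer cell markers, and 0.45 and 0.38 for interferon-stimulated genes.

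Myeloid and red cell markers set KO replicate 2 apart, after stimulation and in medium alike. The 17 neutrophil and granulocyte precursor markers had a median of -0.052 on KO replicate 1 and 3.95 on KO replicate 2. Of them 5 lay above, 29.4% against 13.4% of all genes, and 1 below, 5.88% against 24.3%. Their summed level, on a log2 scale, was 7.21 and 7.18 in WT and 7.26 and 8.88 in KO cells. Mpo, myeloperoxidase, was at 3.59 and 3.11 in WT and 3.61 and 6.67 in KO cells. The granule gene Ngp was at -4.08 and -5.21 against -7.12 and 0.53, so the KO arrays lay on either side of WT. Fcnb, which encodes ficolin B, was not well above background in WT and was at least 6.83-fold higher in KO cells. Its measured difference (3.19) did not pass (limma, adjusted p = 0.938). In medium the neutrophil list had medians of -0.19 and 4.24 on KO replicates 1 and 2, with Mpo at 4.49 and 7.63 in KO cells and Ngp at -3.82 and -4.91 against -5.31 and 0.97.

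The 17 erythroid and platelet markers had medians of -0.49 and 1.97 on the KO arrays. None of them lay above or below, against 13.4% and 24.3% of all genes. Their summed log2 level was 6.63 and 5.73 in WT and 5.54 and 8.58 in KO cells. Hbb-bt, a beta-globin gene, was at 5.28 and 4.23 in WT and 3.99 and 7.39 in KO cells. The 13 monocyte and macrophage markers had medians of 0.089 and 0.82, and a summed level of 3.54 and 3.29 against 3.36 and 4.91. Among 26 cell cycle genes 5 lay above, 19.2% against 13.4% of all genes, and 1 below, 3.85% against 24.3%. Their medians were -0.015 and 1.06 on the KO arrays. In medium 13 of the 26 lay above, against 12.9% of all genes, and 2 below, against 21.2%. Mki67, which marks dividing cells, was at 3.21 and 2.97 in WT and 3.22 and 4.53 in KO cells, and in medium at 3.29 and 3.09 against 3.14 and 4.28, so KO replicate 2 was high in both conditions. In medium the medians on KO replicates 1 and 2 were -0.47 and 1.76 for erythroid and platelet markers, -0.047 and 0.82 for monocyte and macrophage markers and 0.044 and 0.88 for cell cycle genes. Dendritic cell markers (0 of 12 above, 2 below) and stromal and endothelial markers (3 of 10 above, 2 below) showed no common side.

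In the remaining groups no gene passed, and their counts stand against 13.4% above and 24.3% below among all genes. Among 21 apoptosis regulators 2 lay above, 9.52%, and 5 below, 23.8%. Bmf, a pro-apoptotic gene of the Bcl-2 family, was at 0.53 and 0.79 in WT and 0.22 and -0.15 in KO cells (-0.62 ± 0.17, limma, adjusted p = 0.606), and the survival gene Bcl2 stood at -0.44 ± 0.19. Among 21 glycolysis genes 3 lay above, 14.3%, and 5 below, 23.8%. Slc16a3, a lactate exporter gene, was at 1.38 and 1.84 against 2.51 and 2.20 (0.74 ± 0.24), with 0.80 by its other probe, and it lay above in medium too. Among 19 heat shock and chaperone genes 3 lay above and 3 below, with the co-chaperone gene Bag3 at 0.46 ± 0.16. Ribosome biogenesis (28 genes, 3 above and 0 below) and cholesterol synthesis (20 genes, 0 above and 1 below) had few genes beyond WT on both KO arrays, because the KO arrays lay on opposite sides. On KO replicate 1 alone 20 ribosome biogenesis and 16 cholesterol synthesis genes were below both WT arrays, against 43.8% of all genes. On KO replicate 2 alone 27 and 15 were above, against 35.7%.

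The stimulated comparison and the one in medium share no array, but they may not be independent. Across genes, deviations of same-numbered arrays from their group means correlated between medium and stimulated cells with r = 0.742 in KO and 0.161 in WT, given as a description over 2 arrays per group. Of the 2025 genes that lay above after stimulation, 665 lay above in medium, 32.8% of the stimulated list and 34.1% of the medium list, and 204 lay below there. Of the 3674 that lay below, 1266 lay below in medium, 34.5% and 39.5% of the lists, and 285 lay above. In medium 12.9% of all genes lay above and 21.2% below. The labels do not say whether cells of 1 animal went into both conditions.

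Genes beside Lsp1 on its chromosome, the 5 measured ones nearest on each side by RefSeq order, were not called. They were Krtap5-1 (-0.17), Krtap5-4 (0.26), Ctsd (0.022), Syt8 (0.30) and Tnni2 (-0.30) on one side, and Tnnt3 (-0.33), Mrpl23 (-0.10), Nctc1 (-0.011), Igf2 (-0.11) and Igf2os (-0.32) on the other. Syt8 was not well above background on the stimulated WT arrays, so its value is near the floor. Tnnt3, a troponin gene, was at -2.48 and -2.61 in WT and -2.81 and -2.94 in KO cells. Its difference in medium was -1.16, below in both conditions without passing in either.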

How the data were processed

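The data are 8 one-colour Agilent arrays (Cy3) of total RNA from splenic T cells, 4 groups of 2. The deposited values are spot intensities, and the processed signal is intensity after background subtraction per the file headers (scanner software Feature Extraction, version 10.7.1.1). The deposited value table equals the scanner's median intensity, linear and uncentred. All arrays share a slide and a scan, and slide column follows genotype, so position and genotype cannot be told apart. Intensities carry no read depth, and the number of arrays limits the precision.

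Control and outlier spots were left out and repeated spots averaged. Log2 of the deposited processed intensity was centred on each array's 75th percentile over non-control spots. A probe was kept where any group had both its arrays well above background (37257 of 55681). Accessions named 26056 probes through RefSeq GRCm38.p6, and a gene was its probe with the highest mean. limma 3.58.1 in R 4.3.3 fitted group means over all 8 arrays, with Benjamini-Hochberg adjustment over all genes and calls below 0.05, and was tested on simulated data. Normexp (offset 50) used the median signal, as the files hold no mean signal.

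The members, the 29 gene lists and the rule for named genes were chosen with earlier results of these data known. The rule names Lsp1, called genes, the 12 widest gaps in each direction, the widest gaps and smallest p of each list, marker genes that differ most between KO arrays, and the 5 neighbours of Lsp1 on each side. Ccr7, Cd22, Ctla4, Dhx58, H2-Ab1, Hbb-bt, Ifih1, Ifng, Il2, Isg15, Itgal, Itgb2 and Oas3 were chosen after their values were seen. Some members counted here are not reported by name. In the list of sex-linked genes 1 of 5 was measured, Xist, at -0.19. Past the filter were 24 of 25 activation surface molecules, 21 of 24 apoptosis regulators, 21 of 23 chemokine and homing receptors, 12 of 16 chemokines, 12 of 14 dendritic cell markers, 17 of 18 erythroid and platelet markers, 19 of 20 heat shock and chaperone genes, 27 of 28 integrins and adhesion molecules, 29 of 31 interferon-stimulated genes, 13 of 16 monocyte and macrophage markers, 17 of 20 neutrophil and granulocyte precursor markers and 10 of 14 stromal and endothelial markers, and all members of the other lists.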

Additional observations from a re-analysis of the deposited data

Results flagged for a closer look

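For the probes used here, the genotype difference after stimulation and in medium had opposite signs. Olfr325, an olfactory receptor gene, had a difference between the 2 that passed (-4.05, limma, adjusted p = 0.0393), and it was well above background on the 2 stimulated WT arrays only, so its value in medium is near the floor. For the genes that follow, both KO arrays lay on one side of both WT arrays after stimulation and on the other side in medium, and the difference between the conditions did not pass. KO minus WT after stimulation and in medium was -3.48 and 0.45 for Gpr39 (limma, adjusted p = 0.0555), whose signal was not well above background on the KO stimulated or any medium array, so that these values are near the floor and their sign in medium is not settled. It was -2.74 and 1.29 for Cyp27b1 (limma, adjusted p = 0.899), 0.35 and -0.30 for the collagen gene Col1a1, -0.46 and 0.25 for Tnfrsf9, -0.43 and 0.18 for H2-DMa and 0.22 and -0.21 for the ribosome biogenesis gene Utp20 (the last 4 with limma, adjusted p = 0.9999 each). Another Tnfrsf9 probe gave 0.34 after stimulation, so an opposite sign is not settled for that gene. Cyp27b1 was well above background on only 3 of the 4 medium arrays, so its difference there is in part near the floor. The cause of the opposite signs was not tested.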

How the results depend on the processing

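Against 3 genes called, 1 (Lsp1) was called with normexp background correction, the deposited value table, genes well above background on all 4 stimulated arrays, or a variance trend. In a fit of the 4 stimulated arrays 0 were called (796 at an unadjusted p below 0.05), with Lsp1 at -3.35 (limma, adjusted p = 0.0714). Without both KO replicate 2 arrays 1 was called, Pcdh7, with Lsp1 at -3.34 (limma, adjusted p = 0.0601). Over single arrays left out, calls ranged from 0 to 13, with 0 without WT stimulated replicate 2 (590 at an unadjusted p below 0.05) and 13 without KO stimulated replicate 1, and Lsp1 from -3.38 to -3.32. The comparison of genotype differences between conditions called 3 genes with quantile normalization and 0 with normexp, the value table, no filter, the stricter filter, the trend, or without both KO replicate 2 arrays, and 0 to 1 over single arrays left out. Genes below numbered 6380 with no filter and 6626 without both KO replicate 2 arrays (4730 above), and 4862 to 7535 (3295 to 5409 above) over single arrays left out. With a stimulated array left out, fewer arrays have to lie apart, so the counts above and below could not fall. Their rise there therefore cannot show whether they depend on the processing. Of genes above or below, 35.5% lay above, against 43.6% with quantile normalization, 25.9% with normexp, 27.2% with the value table and 26.6% with no filter. Same-numbered samples did not deviate together across genotypes (r = -0.244 between stimulated WT and KO arrays), while those of KO cells did between conditions (r = 0.742). With the replicate block 2 genes were called, Lsp1 and Olfr325, and the comparison between conditions called 0, as with the block within genotype. With the numbers crossed, a pairing chosen after seeing the data, 5 were called. Of 149 named differences 126 kept sign and call throughout. Signs turned without both KO replicate 2 arrays, none of them called, for Lef1 (0.057), Ngp (-2.48), Csf3r (0.084), Tfrc (-0.053), Gp9 (-0.24), Rhag (-0.93), Ermap (-0.012), Tie1 (-0.46), Cxcl10 (-0.24), Polr1b (-0.014), Ccne1 (-0.0038), Aurkb (-0.026) and Igf2 (0.14). Over single arrays left out, values ranged from -0.70 to 0.057 for Lef1, -2.48 to 5.17 for Ngp, -0.25 to 0.084 for Csf3r, -0.053 to 1.09 for Tfrc, -0.24 to 1.97 for Gp9, -0.93 to 3.60 for Rhag, -0.012 to 0.21 for Ermap, -0.46 to 2.42 for Tie1, -0.24 to 1.88 for Cxcl10, -0.014 to 0.40 for Polr1b, -0.0038 to 0.77 for Ccne1, -0.026 to 1.73 for Aurkb, -0.36 to 0.14 for Igf2, -0.47 to 0.14 for Ncr1, -0.025 to 0.069 for Ctsd and -0.16 to 0.14 for Nctc1. Signs also turned for Thy1 with quantile normalization (0.012), Clec4a4 with normexp (-0.062) and, with the mean of a gene's probes, Kdr (0.17), Srebf2 (0.036) and Ctsd (-0.068). Of 420 list medians under alternatives 21 moved by more than the spread between arrays. That spread includes the difference between the 2 KO arrays, so a list that differs between them can change much without counting as moved. The neutrophil median ranged from -0.052 to 3.95 and the cell cycle median from -0.015 to 1.06, neither counted as moved. Apart from the direction of the counts above and below with arrays left out, the cause of these changes was not tested. Signal near background limits Olfr325, Gpr39, Fcnb, Tie1 and Syt8 to bounds, so the values given for Tie1 and Syt8 are not measured sizes. Ngp was well above background on only 1 of the 2 stimulated KO arrays.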

Other observations

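Among all 37257 probes past the filter, named or not, 8 were called in stimulated cells, and 5 of them carry no gene name here. The probe A_51_P450788 was at 1.15 and 0.78 on the stimulated WT arrays and at -1.63 and -1.77 on the KO arrays, well above background on each (-2.66 ± 0.17, limma, adjusted p = 0.0210). It was at -0.98 and -1.21 in KO cells in medium, again below both WT arrays. The probe A_55_P2017624 had the shape of Olfr325 and Gpr39, at -4.20 and -3.82 in stimulated WT cells and at -7.72 and -7.79 in stimulated KO cells, where it was not well above background. The probe A_55_P2275969 went the other way, at -7.81 and -7.93 in stimulated WT cells, not well above background, and at -4.31 and -4.72 in stimulated KO cells. The other 2, A_30_P01028229 at -5.15 and -4.93 and A_30_P01026635 at -4.13 and -3.33 in stimulated KO cells, were likewise well above background there and not in stimulated WT cells. Apart from A_51_P450788, the calls of these unnamed probes thus rest on values near the floor in the dimmer genotype. Of the stimulated groups, only the brighter genotype could carry those probes past the filter. The filter itself thus favoured a difference between genotypes there.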
